A study of Mus musculus with 8 samples.

Results

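The growth hormone (GH), STAT5 and IGF1 axis was followed in mouse liver through 9 genes. They were the receptor gene *Ghr*, the kinase gene *Jak2*, the transcription factor genes *Stat5a* and *Stat5b*, the genes of the circulating products *Igf1* and *Igfals*, the feedback inhibitor genes *Socs2* and *Cish*, and the repressor gene *Bcl6*. The genes were picked by name, and all 9 were found among the 46078 gene identifiers of the deposited count table. All 9 also passed the filter on low counts, which left 13856 genes for testing.

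The study asked how loss of the RNA-binding protein RBFOX2, a regulator of alternative splicing, alters the liver. LWT animals carried *Rbfox2* LoxP/LoxP without Cre (Alb_cre−), and LΔRbfox2 animals carried *Rbfox2* LoxP/LoxP with Cre (Alb_cre+), so the floxed alleles were common to both groups. Cre was driven by the albumin promoter, which directs the deletion to hepatocytes, so that other cells of the liver keep *Rbfox2*. Poly(A) RNA of 4 LWT and 4 LΔRbfox2 livers was sequenced, with 1 library for each liver. All mice received the control diet (CD, labelled as a chow diet) for 12 weeks by the sample labels. The methods describe a longer feeding period, begun in young adults. Livers were collected after a 16 h fast. Male mice were used unless stated otherwise, and the sources name no strain background for the crosses.

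GH is released from the pituitary in pulses and binds its receptor GHR on hepatocytes, which activates the receptor-bound kinase JAK2. JAK2 phosphorylates STAT5A and STAT5B, which dimerise, enter the nucleus and switch on genes such as *Igf1*, *Igfals*, *Socs2* and *Cish*, while *Bcl6* is a gene that STAT5 turns down. The pattern of the pulses differs between the sexes in rodents and sets the sex bias of many liver genes, and fasting lowers the output of IGF1 from the liver. STAT5 activity itself rests on phosphorylation, which RNA-seq does not measure.

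Assigned counts ran from 37482458 to 56177588 per liver. *Rbfox2* separated the genotypes, with 10.4 to 18.3 CPM (the count relative to a library total scaled by TMM factors) in LWT livers and 2.24 to 6.09 CPM in LΔRbfox2 livers (log2 fold change −1.82, SE 0.32, edgeR unadjusted p = 2.2e-04, adjusted p = 0.504). The summed level of 6 hepatocyte markers was 43300 to 63500 CPM in LWT and 48200 to 68600 CPM in LΔRbfox2 livers, and none of the 6 was at 0. The summed level of 5 Kupffer cell markers ran from 52.6 to 91.7 CPM in LWT and from 29.9 to 61.8 CPM in LΔRbfox2, and 1 of them (*Clec4f*) did not overlap between the genotypes, as 2.28% of all tested genes did not. Log2 differences of the 5 ran from −0.73 for *Clec4f* to 0.077 for *Timd4*. Sums of stellate (68.0 to 128 CPM), sinusoidal endothelial (47.3 to 72.8 CPM) and cholangiocyte markers (3.02 to 5.64 CPM) overlapped between the genotypes. Markers of adipocytes, exocrine pancreas, lymphocytes and neutrophils summed to at most 1.07 CPM in any liver, with *Lep*, *Ly6g* and 2 of 3 pancreatic markers at 0 throughout. TMM factors were 1.02 to 1.14 in 6 livers and 0.724 and 0.776 in LΔRbfox2 livers 3 and 4.

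Levels of the 9 genes were first set against each other per kilobase of annotated exon (RPKM over the union of exons, mean of 8 livers). *Ghr* and *Igf1* stood at the top with 32.9 and 32.2 RPKM. By this length their order was not fixed, since *Ghr* was above *Igf1* in 5 of 8 livers. *Igfals* followed at 14.0 RPKM and *Stat5b* at 3.85 RPKM, and the ranges of *Igf1*, *Igfals* and *Stat5b* over the 8 livers did not overlap. *Jak2* was next at 1.70 RPKM, below every liver's value for *Stat5b*. The remaining 4 were *Bcl6* at 1.54 RPKM, *Socs2* at 0.986 RPKM, *Stat5a* at 0.687 RPKM and *Cish* at 0.516 RPKM, and each of these overlapped its neighbour in the order. With the longest transcript as the length, the first 4 places and the last 2 were unchanged, but *Bcl6* at 2.62 RPKM and *Socs2* at 2.22 RPKM moved above *Jak2*. *Ghr* at 71.2 RPKM was then above *Igf1* at 45.3 RPKM in 8 of 8 livers, so their near tie depended on the length used. The receptor and the endocrine products were thus the abundant transcripts of the axis, and the genes of the feedback arm were among the scarce ones.

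**Figure D1:**
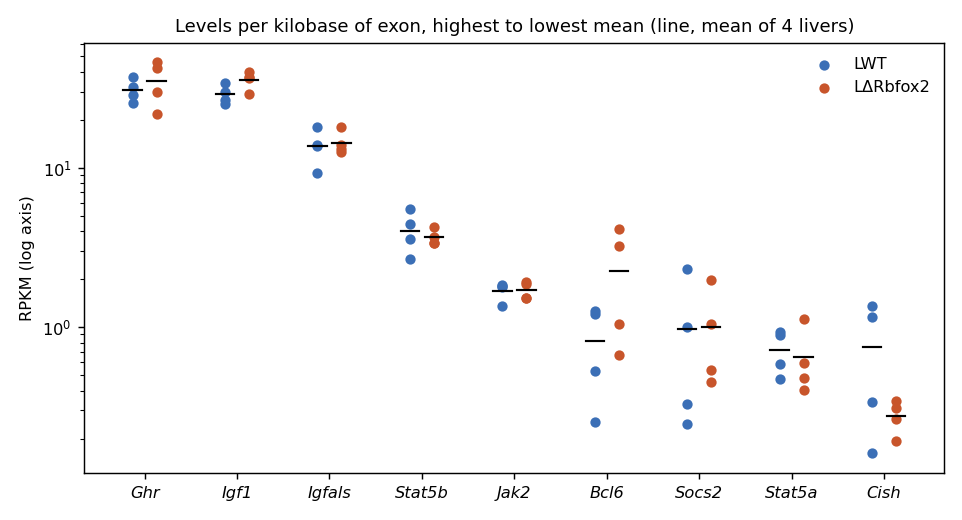
Level of each of the 9 genes in each liver as reads per kilobase of exon, scaled to the library (RPKM, log axis; blue LWT, orange LΔRbfox2, 4 livers each). Over the union of exons, *Ghr* and *Igf1* share the top with means of 32.9 and 32.2 RPKM, and *Cish* is lowest with 0.516 RPKM.

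*Ghr* encodes the hepatic GH receptor and lies on the minus strand (ENSMUSG00000055737, GRCm38 chr15:3317760-3583492). LWT livers 1 to 4 held 229.7, 335, 288 and 259 CPM of *Ghr*. LΔRbfox2 livers 1 to 4 held 271, 197, 415 and 383 CPM. The highest values were those of LΔRbfox2 livers 3 and 4 and the lowest that of LΔRbfox2 liver 2, so the LΔRbfox2 group enclosed the whole LWT range. The means were 278 ± 44.8 and 317 ± 101 CPM (SD, n = 4 livers each), and the fitted log2 difference was 0.19 (SE 0.25, edgeR adjusted p = 0.734). *Jak2* (ENSMUSG00000024789, chr19:29251828-29313080), which encodes the kinase bound to the receptor, was, with *Igf1*, the steadiest of the 9 over the livers. Its level was 9.07, 6.79, 9.03 and 9.19 CPM in LWT livers and 9.41, 7.68, 7.71 and 9.66 CPM in LΔRbfox2 livers. LWT liver 2 was the lowest of all, and the other 7 livers ran from 7.68 to 9.66 CPM. The genotype difference was 0.016 on the log2 scale with a 95% interval of −0.38 to 0.42 (limma-voom).

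*Stat5a* and *Stat5b* are neighbouring genes of closely similar coding sequence on chromosome 11 (*Stat5a*, ENSMUSG00000004043, chr11:100859351-100885169; *Stat5b*, ENSMUSG00000020919, chr11:100780731-100850724), so reads that match both may be split between them. *Stat5b* is the main hepatic form. *Stat5b* stood at 30.3, 14.7, 19.8 and 24.6 CPM in LWT livers and at 20.4, 23.5, 18.8 and 18.8 CPM in LΔRbfox2 livers. The lowest and the highest *Stat5b* value both came from LWT livers, and the LΔRbfox2 values fell inside that range. *Stat5a* was measured at 6.40, 3.36, 4.20 and 6.65 CPM in LWT livers and at 2.86, 8.03, 3.43 and 4.27 CPM in LΔRbfox2 livers. Here LΔRbfox2 liver 2 was highest and LΔRbfox2 liver 1 lowest, and the groups overlapped. Exons of *Stat5a* overlap those of *Stat3* on the opposite strand, and without the strand setting of the counting such reads cannot be told apart. Per kilobase, *Stat5b* exceeded *Stat5a* in every liver, by 3.77 to 9.19 times over the union of exons and by 2.22 to 5.42 times over the longest transcripts. The log2 differences between genotypes were −0.13 for *Stat5b* (SE 0.22, edgeR adjusted p = 0.788) and −0.14 for *Stat5a* (SE 0.36, edgeR adjusted p = 0.866).

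*Igf1* encodes the growth factor that the liver releases into the circulation under GH (ENSMUSG00000020053, chr10:87858265-87937042). *Igf1* read 263, 337, 295 and 249 CPM in LWT livers. In LΔRbfox2 livers it read 361, 288, 366 and 395 CPM. LΔRbfox2 livers 1, 3 and 4 were above every LWT liver, and LΔRbfox2 liver 2 lay within the LWT range. The means were 286 ± 39.2 CPM in LWT and 352 ± 45.7 CPM in LΔRbfox2 (SD, n = 4 livers each), a log2 difference of 0.30 (SE 0.17, 95% interval −0.08 to 0.69 by limma-voom, edgeR adjusted p = 0.544). The two-sided exact permutation test on the 8 livers gave p = 0.0857, where 0.0286 is the smallest value that 4 against 4 allow. The difference shrank to 0.03 when the counts were corrected for GC content. *Igfals* encodes the acid-labile subunit, which holds IGF1 in a long-lived complex with its binding protein in plasma (ENSMUSG00000046070, chr17:24865997-24882010). It was at 43.4, 57.0, 44.2 and 29.5 CPM in LWT livers and at 56.8, 41.6, 39.5 and 43.9 CPM in LΔRbfox2 livers. The extremes were both LWT livers, 2 and 4, with the LΔRbfox2 values between them, and the log2 difference was 0.063 (SE 0.22, edgeR adjusted p = 0.904). Per kilobase over the union of exons, *Igf1* exceeded *Igfals* by 1.89 to 2.96 times over the 8 livers.

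**Figure D2:**
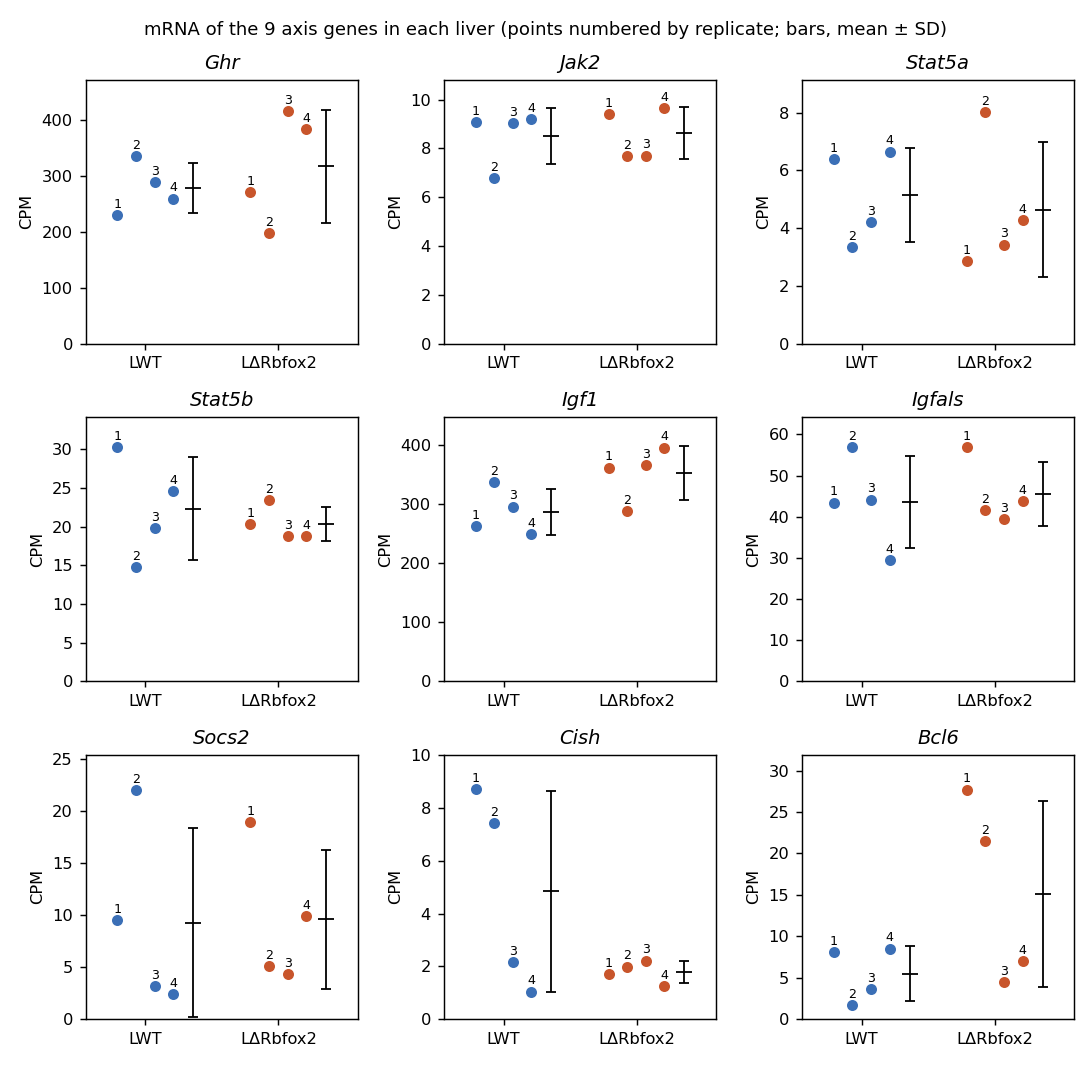
CPM of the 9 genes in each liver (points, numbered by replicate; blue LWT, orange LΔRbfox2), with the mean ± SD of the 4 livers of each genotype. The genotypes overlap for every gene, and *Bcl6*, *Cish* and *Socs2* show the widest scatter.

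*Socs2*, *Cish*, *Bcl6* and *Igfals* are known STAT5-responsive genes, and STAT5 dimers bind the palindrome TTCNNNGAA. Promoter windows from RefSeq (GRCm38.p6, 250 bases before to 50 after an annotated start) were searched for this motif, which is its own reverse complement, so a match counts for both strands. Windows were found for 8 of the 9 genes, *Socs2* being the one without a match in the table. The motif was in 5 of 14 windows and in 3 of 8 genes (*Cish*, *Bcl6* and *Igfals*), against 8.3% of all 32851 windows and 9.55% of all 27025 genes. Matches are shown on the strand of the gene with the motif in capitals, because they show how the palindromes of the STAT5-responsive genes are spaced. In *Cish* a pair of motifs sat 11 bases apart, the first of them at the annotated start, and the 2 printed stretches overlap. In *Bcl6* the matches at −168, −122 and −88 bases from an annotated start lay in the same window. Windows with 2 or more motifs made up 0.457% of all windows.
Cish, chr9:107296649-107296677, plus strand: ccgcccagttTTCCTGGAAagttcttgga
Cish, chr9:107296660-107296688, plus strand: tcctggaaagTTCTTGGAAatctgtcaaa
Bcl6, chr16:23988952-23988980, minus strand: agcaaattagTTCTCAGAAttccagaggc
Bcl6, chr16:23981433-23981461, minus strand: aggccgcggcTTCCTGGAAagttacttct
Bcl6, chr16:23981387-23981415, minus strand: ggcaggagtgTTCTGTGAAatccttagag
Bcl6, chr16:23981353-23981381, minus strand: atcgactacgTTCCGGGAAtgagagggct
Igfals, chr17:24877598-24877626, plus strand: gatctataatTTCTCAGAAaagaggctga
Igfals, chr17:24878163-24878191, plus strand: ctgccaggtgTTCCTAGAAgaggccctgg
A match is a run of letters and was not tested for binding in these livers.

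*Socs2* encodes an inhibitor that is induced by GH and curbs signalling from its receptor (ENSMUSG00000020027, chr10:95385362-95417180). Its level was 9.51, 21.98, 3.12 and 2.35 CPM in LWT livers and 18.9, 5.11, 4.33 and 9.91 CPM in LΔRbfox2 livers. A high liver occurred in each genotype, LWT liver 2 and LΔRbfox2 liver 1, and the highest value was 9.36 times the lowest. The SD within genotypes was 1.25 on the log2 scale, larger than that of 98.3% of the tested genes. Against this spread, the means of 9.24 ± 9.08 CPM in LWT and 9.57 ± 6.70 CPM in LΔRbfox2 (SD, n = 4 livers each) gave a log2 difference of 0.05 (SE 0.70, 95% interval −1.22 to 1.92 by limma-voom) that spans several-fold differences either way.

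*Cish*, which encodes a second STAT5-induced inhibitor (ENSMUSG00000032578, chr9:107296026-107302784), was at 8.73, 7.43, 2.16 and 1.04 CPM in LWT livers. All 4 LΔRbfox2 livers were low, with 1.69, 1.98, 2.21 and 1.24 CPM. Only LWT livers 1 and 2 exceeded the LΔRbfox2 range, LWT liver 4 had the lowest value of the 8, and LWT liver 3 lay among the LΔRbfox2 livers. The mean was 4.84 ± 3.81 CPM in LWT and 1.78 ± 0.419 CPM in LΔRbfox2 (SD, n = 4 livers each), so the coefficient of variation was 78.6% in one group and 23.6% in the other. The fitted log2 difference was −1.44 (SE 0.64, edgeR unadjusted p = 0.0319, adjusted p = 0.504), and the two-sided exact permutation test gave p = 0.314. limma-voom put it at −0.97 with an interval of −2.40 to 0.46. The unadjusted p was no longer under 0.05 when LWT liver 1 or 2, or LΔRbfox2 liver 1 or 4, was left out. Exons of *Cish* overlap those of *Gm17040* and *Gm17041* on the opposite strand. The high livers for *Socs2* and *Cish* were only partly the same: LWT liver 2 was high in both, whereas LWT liver 1 had the most *Cish* and LΔRbfox2 liver 1 had much *Socs2* but little *Cish*. Over the union of exons, *Socs2* was accordingly 0.734 to 1.99 times *Cish* in LWT livers and 1.32 to 7.54 times in LΔRbfox2 livers. Over the longest transcripts *Socs2* was 1.21 to 3.27 times *Cish* in LWT livers and 2.17 to 12.4 times in LΔRbfox2 livers.

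*Bcl6* encodes a zinc-finger repressor whose sites in liver overlap with those of STAT5 (ENSMUSG00000022508, chr16:23965052-23988852, exons overlapping *Gm37419* on the opposite strand). LWT livers held 8.05, 1.71, 3.58 and 8.50 CPM of *Bcl6*, and LΔRbfox2 livers held 27.7, 21.5, 4.45 and 6.97 CPM. LΔRbfox2 livers 1 and 2 stood above all others, while LΔRbfox2 livers 3 and 4 were inside the LWT range. The means were 5.46 ± 3.34 and 15.1 ± 11.2 CPM (SD, n = 4 livers each), a log2 difference of 1.48 (SE 0.68, 95% interval −0.063 to 2.95 by limma-voom, edgeR unadjusted p = 0.0416, adjusted p = 0.504). The two-sided exact permutation test gave p = 0.171. Without LΔRbfox2 liver 1 the log2 difference was 1.02, and the unadjusted p was also lost without LΔRbfox2 liver 2, LWT liver 2 or LWT liver 3. Over the 8 livers *Bcl6* spanned 16.2 times. Per kilobase over the union of exons, *Bcl6* was 0.0957 to 0.286 times *Stat5b* in LWT livers and reached 1.12 and 0.756 times *Stat5b* in LΔRbfox2 livers 1 and 2. Over the longest transcripts these values were 0.154 to 0.458 times in LWT livers, and 1.80 and 1.21 times in LΔRbfox2 livers 1 and 2.

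Across the axis, none of the 9 genes passed an edgeR adjusted p of 0.05, and neither did any of the 13856 tested genes (0%). At an unadjusted p under 0.05 the genes were *Bcl6* (higher in LΔRbfox2) and *Cish* (lower), 2 of 9, against 9.79% of all tested genes, of which 7.95% were higher and 1.83% lower. limma-voom passed 0 genes after adjustment and none of the 9 at an unadjusted p under 0.05, and DESeq2 passed 10 genes (0.0722%), none of the 9. In 0 of 9 did the genotypes fail to overlap, where 2.28% of all tested genes did so. Fitted log2 differences were above 0 for 6 genes and below 0 for 3, with a median of 0.049 beside −0.015 over all tested genes. SDs within genotypes were 1.25, 1.05 and 1.18 (log2) for *Socs2*, *Cish* and *Bcl6*, beside a median of 0.386 over all tested genes. Those of *Jak2* and *Igf1* were 0.195 and 0.196, and 12.7% and 12.9% of the tested genes had smaller ones. Transcripts per cell and the number of hepatocytes in a sample cannot be told apart in bulk livers.

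**Figure D3:**
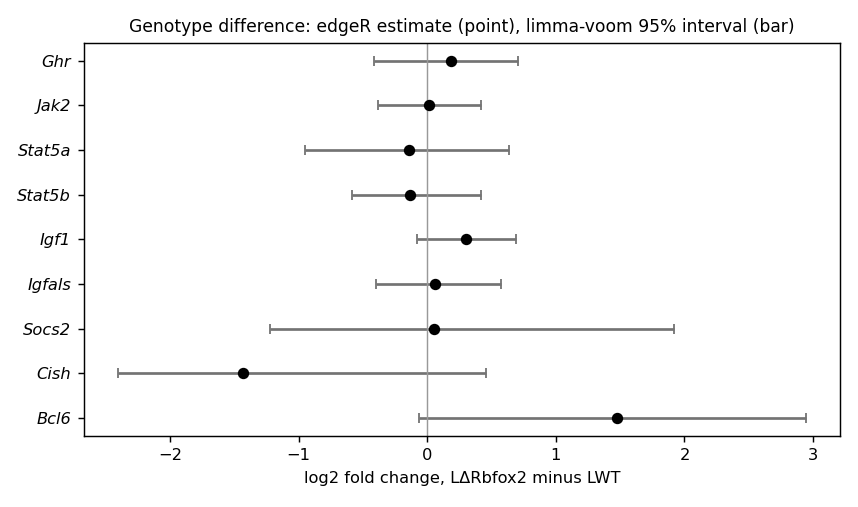
Log2 fold change (LΔRbfox2 minus LWT) of the 9 genes, with the edgeR estimate as a point and the 95% interval of limma-voom as a bar. *Jak2* has a narrow interval around 0 (−0.38 to 0.42), those of *Socs2*, *Cish* and *Bcl6* are wide, and all 9 intervals include 0.

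Relations among members were asked of 6 pairs over the 8 livers (log2 CPM, two-sided permutation p, Benjamini-Hochberg over the 6). The closest pair was *Igf1* and *Ghr*, the product and the receptor, with Pearson r = 0.745 (exact permutation p = 0.0399, adjusted 0.24) and Spearman rho = 0.81 (exact permutation p = 0.0218, adjusted 0.131). Without the 2 livers farthest from the median, r was 0.74 (exact permutation p = 0.1). Both genes also followed the principal axis of variation described below, as many genes did, and its part in this relation was not tested. *Igf1* and *Igfals* had r = 0.558 and rho = 0.381, and *Socs2* and *Igf1* had r = 0.522 and rho = 0.476. None of the 6 passed the adjustment. For the inhibitors *Socs2* and *Cish* r was 0.494 (exact permutation p = 0.222, rho = 0.286) and 0.003 without the 2 farthest livers, so the relation rested on these. In LWT livers both inhibitors were higher in livers 1 and 2 than in 3 and 4, whereas in LΔRbfox2 livers the pair with the most *Socs2* (1 and 4) had the least *Cish*, so the pooled value joins different orders. *Cish* and *Bcl6* had r = −0.434 and rho = −0.5, and *Socs2* and *Bcl6* had r = −0.001 and rho = −0.048. That pair too was ordered differently in the genotypes, with the least *Bcl6* in the LWT liver with the most *Socs2* (liver 2) and the most *Bcl6* in the LΔRbfox2 liver with the most *Socs2* (liver 1).

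Members were also set against the principal axis of variation among the livers, a relation added after the data had been seen. This axis held 54.1% of the variance of log2 CPM over all tested genes, the 9 genes included, and its scores ran from −56 in LΔRbfox2 liver 4 to 59.4 in LWT liver 1, with both genotypes on either side of 0. *Igf1* followed it most closely of the 9, falling along the axis with r = −0.952 (permutation p = 5.7e-04, adjusted over 9 genes 0.00513, rho = −0.952), and with r = −0.894 without the 2 farthest livers. Many genes followed this axis, with a median absolute r of 0.723 over the 13856 tested genes, and 7.27% of them had an absolute r as large as that of *Igf1*. *Ghr* fell likewise with r = −0.869 (permutation p = 0.00697, adjusted 0.0223, rho = −0.881), a size reached by 28.7% of the tested genes. *Stat5b* went the other way with r = 0.83 (permutation p = 0.00744, adjusted 0.0223, rho = 0.881), a size reached by 35.5% of the tested genes. Without the 2 farthest livers r was 0.613 over 6 livers (permutation p = 0.181), so the test was passed only with those livers included. Within each genotype, livers with higher scores had more *Stat5b*, with LΔRbfox2 livers 3 and 4 alike at 18.8 CPM. The value over 6 livers thus also pools genotypes at different levels. *Stat5a* had r = 0.799 (permutation p adjusted 0.0549), reached by 40.4% of the tested genes. With shares of this size, nothing particular to *Ghr*, *Stat5a* or *Stat5b* is read from these relations. Over all 8 livers, r was −0.364 for *Socs2*, 0.164 for *Cish* and 0.348 for *Bcl6*, none past the test. For *Bcl6* this pools genotypes at different levels. Among LWT livers, 1 and 4 at the upper end of the axis had the most *Bcl6* and liver 2 at the lower end the least, and among LΔRbfox2 livers, 1 and 2 had more than 3 and 4 at the lower end. The high *Socs2* livers, LWT liver 2 and LΔRbfox2 liver 1, were neighbours on the axis with scores of −27.4 and −15.8. LΔRbfox2 livers 3 and 4, the pair with the low TMM factors, sat at one end of the axis, and the part of library composition in these relations was not tested.

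**Figure D4:**
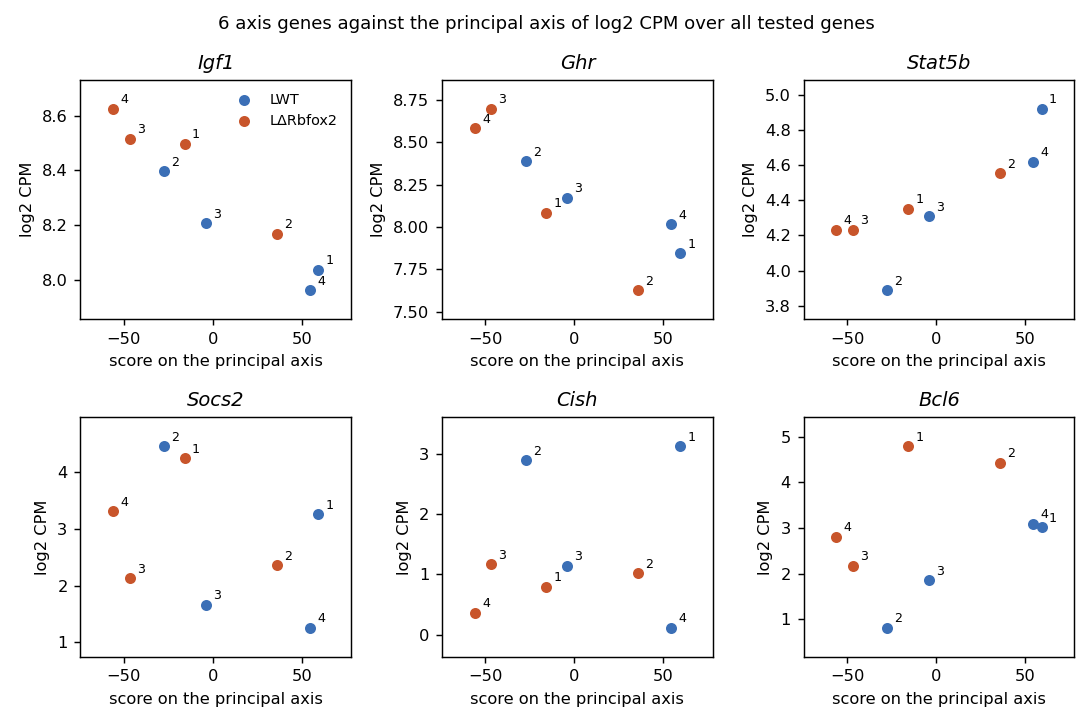
Log2 CPM of *Igf1*, *Ghr*, *Stat5b*, *Socs2*, *Cish* and *Bcl6* in each liver (numbered by replicate; blue LWT, orange LΔRbfox2) against the liver's score on the principal axis of all tested genes. *Igf1* falls along the axis (r = −0.952), and r over the 8 livers is −0.364 for *Socs2*, 0.164 for *Cish* and 0.348 for *Bcl6*.

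The genes most alike to *Igf1*, *Socs2* and *Bcl6* over the 8 livers were sought among 11399 genes by Pearson r of log2 CPM. For *Igf1* these were *Gm8451* (r = 0.996), the respiratory complex II gene *Sdhd* (r = 0.996) and the translation initiation factor gene *Eif3k* (r = 0.995). For *Socs2* they were *Gatm* (r = 0.916), an enzyme of creatine synthesis, *Gimap6* (r = 0.911) and *Adgrl4* (r = 0.902). For *Bcl6* they were *Rbms1* (r = 0.899), *Adamts13* (r = 0.893) and *Kif16b* (r = 0.891). All points share the libraries and their scaling, and the best of many genes is high by selection.

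Partners of the GH receptor outside the 9 genes were read from a list of 20, of which 19 were tested. At an unadjusted p under 0.05 (edgeR) 1 was higher and 2 were lower in LΔRbfox2 livers, none after adjustment, where 7.95% of all tested genes were higher and 1.83% lower at that threshold. The median log2 difference was −0.21, below 0 for 17 of 19, beside −0.015 for all tested genes. The largest difference was in *Socs3*, a cytokine-induced inhibitor of JAK kinases. *Socs3* was at 4.78, 3.86, 6.30 and 5.37 CPM in LWT and at 1.26, 3.53, 3.34 and 3.44 CPM in LΔRbfox2 livers (log2 difference −0.81, SE 0.34, edgeR adjusted p = 0.504). Its groups did not overlap, the only case among the 19, where 2.28% of all tested genes did not overlap. *Stat3*, the transcription factor downstream of interleukin-6 and leptin, stood at 31.3 to 75.5 CPM in LWT and 27.3 to 44.8 CPM in LΔRbfox2 livers (log2 difference −0.67). *Sh2b2*, an adaptor of JAK2, had a log2 difference of −0.63 at under 1.2 CPM in every liver. The summed Kupffer cell markers were also lower in LΔRbfox2 livers 2 and 4 than in any LWT liver, although liver 4 had the highest *Adgre1* of the 8 (5.73 CPM) and more *Timd4* (2.66 CPM) than 3 of the 4 LWT livers. Their part in these values was not tested. The gene higher in LΔRbfox2 was *Ptpn2*, a phosphatase of JAK and STAT proteins (log2 difference 0.51).

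Of the IGF system, 17 of the 18 listed genes were in the table and 11 were tested (*Klkb1* was not analysed here). *Igfbp2*, an IGF-binding protein made by hepatocytes, was at 451, 407, 508 and 504 CPM in LWT livers and at 668, 696, 725 and 521 CPM in LΔRbfox2 livers. All LΔRbfox2 livers were above all LWT livers, with log2 difference 0.48 (SE 0.17, edgeR unadjusted p = 0.0192, adjusted p = 0.504). It was the only one of the 11 at an unadjusted p under 0.05, where 9.79% of all tested genes were. It was also the only one whose groups did not overlap, where 2.28% of all tested genes did not. Beside 9.79%, 1 of 11 called is not a result about the list. *Insr*, the insulin receptor gene, and *Igf2r*, which encodes the IGF2-clearing receptor, had log2 differences of −0.42 and −0.39 with overlapping groups. The median of the 11 was −0.093.

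Among 16 genes that regulate GH action in fasting or by other routes, *Lepr*, the leptin receptor gene, was the only one at an unadjusted p under 0.05. Beside 9.79% of all tested genes at that threshold, 1 of 16 is not a result about the list. *Lepr* stood at 4.34, 5.73, 8.76 and 9.28 CPM in LWT livers and at 36.8, 59.4, 4.60 and 8.42 CPM in LΔRbfox2 livers (log2 difference 1.96, SE 0.75, edgeR adjusted p = 0.504). LΔRbfox2 livers 1 and 2 were thus the high ones, as for *Bcl6*, and LΔRbfox2 livers 3 and 4 lay within the LWT range. *Cux2*, a repressor more abundant in female than in male liver, was at 10.5 CPM in LΔRbfox2 liver 1 and at 4.05 CPM in LWT liver 1, with the other 6 livers between 0.121 and 1.55 CPM. *Onecut1*, a hepatic transcription factor, had a log2 difference of −0.92. The median of the 16 was −0.13.

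Sex-biased genes report on the pattern of GH pulses, and 17 male-biased and 15 of 22 female-biased genes were tested. The male-biased genes had a median log2 difference of −0.072, above 0 for 8 and below 0 for 9, with 2 higher and 0 lower at an unadjusted p under 0.05. Beside 7.95% of all tested genes called higher, 2 of 17 is not a result about the list. *Mup21*, a major urinary protein gene, was at 58.4, 118, 92.9 and 103 CPM in LWT and at 237, 158, 329 and 270.3 CPM in LΔRbfox2 livers, without overlap. Its log2 difference was 1.42 (SE 0.28, edgeR adjusted p = 0.504), and it was the one gene of all lists that passed the adjusted threshold in DESeq2. *Mup20* (darcin, a male urinary pheromone) had a log2 difference of 0.95, and members of the *Mup* family can share reads. *Moxd1* ranged from 0.0402 to 15.6 CPM within LWT livers alone (log2 difference −2.19). The female-biased genes had a median of 0.35, above 0 for 12 of 15. Several of the 15 are *Cyp3a* genes, all above 0, which can share reads as *Mup* genes can. The 15 are therefore not independent. At an unadjusted p under 0.05, 3 were higher and 0 lower, beside 7.95% of all tested genes higher and 1.83% lower. The 3 were *Cyp3a16* (log2 difference 1.89), *Cyp3a44* (1.89) and the neurotrophin receptor gene *Ntrk2* (1.86). These 3 were scarce, at no more than 6.81 CPM in any liver. That value was *Cyp3a44* in LΔRbfox2 liver 4, beside 0.562 to 1.83 CPM in the other LΔRbfox2 livers. Of the 15 only *Ntrk2* did not overlap between the genotypes (0.418 to 0.668 CPM in LWT, 0.859 to 4.33 CPM in LΔRbfox2), as 2.28% of all tested genes did not.

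Of 8 lipid genes known to be held down by STAT5 in liver, 7 were tested, with a median log2 difference of 0.068. *Lpl*, lipoprotein lipase, was higher in LΔRbfox2 livers (log2 difference 0.70) and *Plin4*, a lipid droplet coat protein gene, was lower (−1.25), both at an edgeR unadjusted p under 0.05 and an adjusted p of 0.504. At that unadjusted threshold, 7.95% of all tested genes were higher and 1.83% lower. *Cidec*, another droplet protein gene, ran from 2.77 to 25.5 CPM in LWT and from 4.55 to 54.8 CPM in LΔRbfox2 livers.

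**Figure D5:**
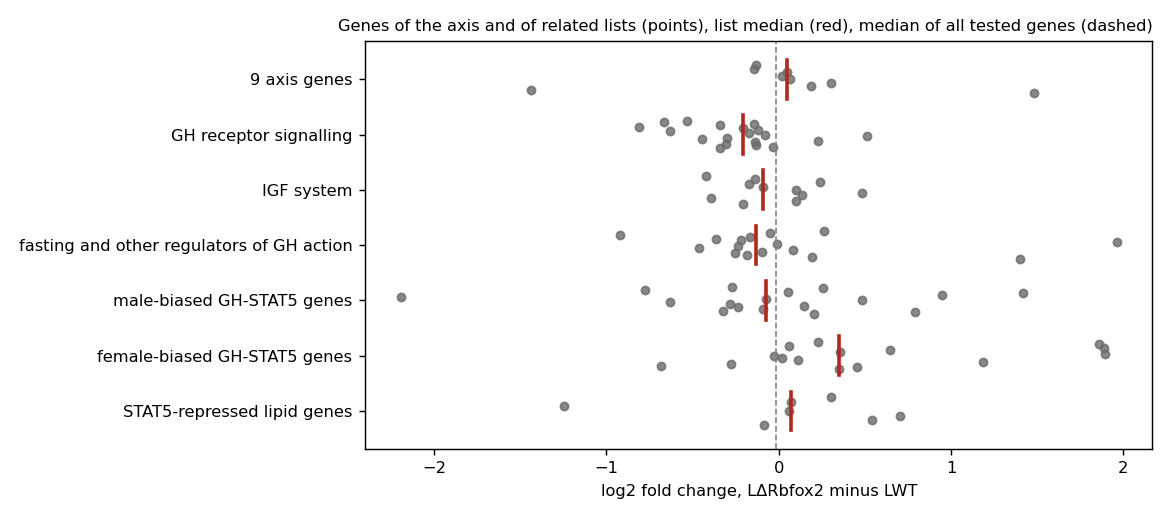
Log2 fold change (LΔRbfox2 minus LWT, edgeR) of each tested gene in the 9-gene axis and 6 related lists, with the list median in red and the median of all tested genes dashed. List medians run from −0.21 for GH receptor signalling to 0.35 for the female-biased genes, and no gene passed the adjusted threshold.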

How the data were processed

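Poly(A) libraries of 8 livers were sequenced by the authors with paired reads of 100 bases. According to the submitters' processing notes, reads were handled with CASAVA (1.8.4), aligned with TopHat2 (2.0.11) and assigned to genes with featureCounts. The methods give a strand-specific setting for the alignment, and that of the counting is not given in the sources used here. The deposited values were raw counts per gene, and no other column was used. From these, TMM-scaled CPM were computed, genes were filtered with filterByExpr (minimum count 10, minimum total 15), and genotypes were compared with edgeR (4.0.16, quasi-likelihood test, prior count 2) in R (4.3.3), with Benjamini-Hochberg adjustment over 13856 genes at 0.05. Intervals and standard errors came from limma-voom (limma 3.58.1), and DESeq2 (1.42.0) was an alternative. Single genes were also tested by two-sided exact permutation over livers. SDs are between livers of 1 group, and total counts per liver ran from 37482458 to 56177588. Summed over genes, no pair of libraries of 1 genotype was within sampling noise, with chi-square per degree of freedom of 97.8 or more. Abundant genes weigh most in this sum, so it does not show that counting errors were below the spread between livers for scarce genes. Gene models were GENCODE M21 on GRCm38, matching 45229 of 46078 identifiers. Scripts were tested on simulated counts with 200 changed genes. At a log2 change of 1, edgeR and limma-voom recovered 0 of the 200 past the adjusted threshold. DESeq2 recovered 100 and called 33 others falsely. At a log2 change of 2, edgeR, limma-voom and DESeq2 recovered 192, 190 and 197, with 8, 8 and 42 false calls. A log2 difference of 1 could thus be missed by edgeR and limma-voom. The changed genes all had a mean above 100 counts, and counts were simulated independently between genes. The principal axis shared by the real livers was therefore absent, and scarcer genes were never changed. The shares recovered thus do not carry over to the real livers, where *Rbfox2* at a log2 difference of −1.82 had an edgeR adjusted p of 0.504.

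The 9 genes and the lists were chosen with earlier results of these data known, so their counts are descriptive. Named genes were the 9, *Rbfox2*, the 3 genes most alike to *Igf1*, *Socs2* and *Bcl6* (mean of at least 1 CPM), and in each list the 3 genes with the largest absolute log2 fold change. *Ptpn2*, *Clec4f*, *Adgre1*, *Timd4*, *Klkb1*, *Lep* and *Ly6g* were named outside this rule, after values were seen. Alternatives were other scalings, filters, tools, length and GC corrections, a replicate block and leaving out each liver.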

Additional observations from a re-analysis of the deposited data

Results flagged for a closer look

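1 value set a liver apart from the rest of its group. *Jak2* was at 6.79 CPM in LWT liver 2, and the other 3 LWT livers lay between 9.03 and 9.19 CPM, so the gap to the nearest liver made up 0.933 of the whole range of the group. 18 groups were examined (9 genes in 2 genotypes) and 0.9 such cases are due to chance alone.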

How the results depend on the processing

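No alternative brought any of the 9 genes past the adjusted threshold in edgeR, limma-voom or DESeq2. DESeq2 passed 10 genes of the whole table, among them 1 of the listed genes (*Mup21*) and *Rbfox2* (log2 difference −1.82, adjusted p = 1.99e-04). *Bcl6* stayed above 0 (1.31 to 1.61, and 1.02 to 1.78 without single livers; edgeR, limma-voom or DESeq2 adjusted p of 0.26 to 0.912) and *Cish* below 0 (−1.62 to −0.86, and −1.77 to −1.01; adjusted p of 0.199 to 0.912), as *Igf1* stayed above 0 (0.032 to 0.46, and 0.24 to 0.40). Near 0 the sign was not fixed, and the cause was not tested. With GC correction the log2 difference was −0.028 for *Ghr*, −0.090 for *Jak2* and −0.019 for *Socs2*. With length and GC corrections it was −0.051 for *Jak2*, 0.18 for *Stat5a* and 0.038 for *Stat5b*, and with a replicate block added −0.044, 0.13 and 0.066. Upper-quartile factors gave −0.028 for *Jak2* and −0.016 for *Socs2*, and no filter on low counts gave −0.020 for *Jak2*. Library totals without TMM factors, an alternative added after seeing the data, moved the median of all genes to −0.23 and gave −0.11 for *Ghr*, −0.20 for *Jak2*, −0.13 for *Igfals* and −0.097 for *Socs2*, all above that median. Leaving out single livers gave −0.001 to 0.36 for *Ghr*, −0.072 to 0.068 for *Jak2*, −0.55 to 0.038 for *Stat5a*, −0.28 to 0.022 for *Stat5b*, −0.084 to 0.23 for *Igfals* and −0.52 to 0.95 for *Socs2*, and r of *Socs2* and *Bcl6* then ran from −0.411 to 0.558. Without LΔRbfox2 liver 2, *Igf1* had an unadjusted p under 0.05, as had 3475 of the 14005 genes tested in that setting. The median of the IGF list reached 0.094 without LWT liver 2, that of the lipid list −0.17 with library totals, and that of the regulators 0.0076 with length and GC corrections, and that of the male-biased list 0.038 without LWT liver 1. The medians of the GH receptor and female-biased lists kept their sign but not their size, from −0.38 with library totals to −0.060 with both corrections and the block (−0.37 without LΔRbfox2 liver 2), and from 0.13 with both corrections to 0.50 without LWT liver 1 (0.19 without LWT liver 4).

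At an unadjusted p under 0.05, 1356 genes differed (1102 higher and 254 lower in LΔRbfox2), 1844 without a filter, 829 higher and 338 lower with upper-quartile factors, 801 and 402 with length correction, and 203 and 393 with library totals, and 404 to 3475 genes without single livers (fewest without LΔRbfox2 liver 4, most without LΔRbfox2 liver 2). Over all tested genes, same-numbered livers did not deviate together (r of 0.127, −0.613, 0.122 and −0.514). A correlation over all genes cannot exclude a pairing that touches part of them, and the labels name no pairing. With the replicate block 335 genes passed the unadjusted p, 0 of the 9 among them, and 0 genes passed the adjustment. With 4 livers a group and the spread seen for *Socs2*, *Cish* and *Bcl6*, intervals were several-fold wide.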
